A study of Mus musculus with 7 samples.

Results

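The genes described here belong to plasma cells, to B cells and to the transport of IgA across epithelium. They are 9 genes, Jchain, Mzb1, Cd79a, Cd79b, Ms4a1, Pou2af1, Derl3, Tnfrsf13b and Pigr, found by symbol among the 22053 entries of a deposited table of protein-coding genes. RNA was sequenced from microdissected kidney cortex of 3 WT kidneys and 4 BPS-TA kidneys of C57BL/6 mice on regular chow, and the table columns carry the names WT-5 to WT-7 for the former and, for the triple cross, TC-7, TC-8, TC-11, TC-12. The WT mice carried no transgene. The BPS-TA mice carried GGT-TTA, a tetracycline transactivator under a truncated γ-glutamyltransferase promoter that is active in proximal tubule; GGT-HIF1A_M3, a stabilized HIF1A under the same promoter; and BPS-TRE-CAS9n, a Cas9 nickase switched on by the transactivator with paired guides against Bap1, Pbrm1 and Setd2. The mice were described as carrying both copies of each transgene, and the nickase allele goes back to 1 founder derived from embryonic stem cells. All changes below are therefore differences between the triple cross and the WT kidneys. The 3 transgenes cannot be told apart here, either from each other or from anything else that differed between the groups. The labels give the age at harvest as "10 months weeks", for both groups alike.

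A plasma cell is the end stage of a B cell that secretes antibody. In mucosal tissue most plasma cells make IgA, and J chain, a small secreted protein, links IgA monomers into dimers and IgM into pentamers. An epithelial cell that bears the polymeric immunoglobulin receptor, encoded by Pigr, takes up the J chain-linked antibody at its basolateral side, carries it across the cell and releases it at the luminal side with a fragment of the receptor attached. In the kidney the receptor is known from tubular epithelium, and secretory IgA is found in urine.

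Promoters from RefSeq (build GRCm38.p6, from 250 bases before to 50 bases after the gene start) were used for 6 of the genes. Those of Jchain, Cd79a, Derl3 and Pigr are shown as examples of genes with a higher level in BPS-TA kidneys and, for Pigr, a lower one. Jchain lies at chr5:88527848-88528147 (minus strand), Cd79a at chr7:24897247-24897546, Derl3 at chr10:75893148-75893447 and Pigr at chr1:130826434-130826733 (all 3 plus strand). Each is written 5′ to 3′ along its own strand, and capitals mark the E-box CACGTG.
Jchain: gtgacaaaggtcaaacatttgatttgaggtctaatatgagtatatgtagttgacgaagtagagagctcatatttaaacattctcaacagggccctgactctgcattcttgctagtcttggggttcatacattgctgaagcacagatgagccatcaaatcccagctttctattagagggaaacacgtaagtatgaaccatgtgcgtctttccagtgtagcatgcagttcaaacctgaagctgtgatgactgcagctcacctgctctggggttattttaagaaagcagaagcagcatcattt
Cd79a: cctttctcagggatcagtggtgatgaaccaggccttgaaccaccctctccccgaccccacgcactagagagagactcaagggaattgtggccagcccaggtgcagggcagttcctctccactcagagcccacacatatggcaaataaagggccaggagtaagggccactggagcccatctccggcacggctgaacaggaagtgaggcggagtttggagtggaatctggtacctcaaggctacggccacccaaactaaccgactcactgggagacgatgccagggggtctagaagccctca
Derl3: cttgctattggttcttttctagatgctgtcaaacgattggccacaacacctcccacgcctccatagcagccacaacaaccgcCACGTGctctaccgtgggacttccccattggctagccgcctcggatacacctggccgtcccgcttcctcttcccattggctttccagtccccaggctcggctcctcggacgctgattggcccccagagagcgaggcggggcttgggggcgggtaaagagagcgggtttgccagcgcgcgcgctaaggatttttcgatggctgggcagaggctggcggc
Pigr: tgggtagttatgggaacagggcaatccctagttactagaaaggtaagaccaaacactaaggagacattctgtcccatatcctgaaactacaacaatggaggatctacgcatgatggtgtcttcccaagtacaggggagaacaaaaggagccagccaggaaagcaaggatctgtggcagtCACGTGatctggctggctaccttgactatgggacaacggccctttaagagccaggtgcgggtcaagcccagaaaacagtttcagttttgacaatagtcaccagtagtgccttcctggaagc
The E-box, which reads the same on both strands and is bound by factors such as Usf1 and Usf2, began 71 bases before the start of Pigr and 168 bases before that of Derl3. It was held by 7.15% of the 32851 promoters in the same table. The octamer ATGCAAAT, the element that Pou2af1 acts on together with its partner factors, was searched on both strands and matched in 0 of the 6 promoters, against 1.74% of all. An element of interferon regulatory factors, GAAANNGAA on both strands, was also matched in 0 of the 6, against 8.56% of all. These are matches of letters in these windows only.

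All values are FPKM (fragments scaled to the length of the transcript and to the size of the library), a unit inferred from the values, and fold changes and their tests are on log2(FPKM + 1), a scale that understates the change of genes with low levels. In genes with 1 transcript the lowest values put 1 read at 0.0272 to 0.0301 FPKM for 1 kb of transcript, which corresponds to about 33200000 to 36800000 reads per kidney. The targeted genes gave no check of the labels by level, since Bap1 was at 22.6 to 26.3 FPKM in WT and 22.9 to 26.7 in BPS-TA kidneys, and Pbrm1 and Setd2 overlapped between the groups as well. Genes of the proximal tubule, the thick ascending limb and the collecting duct were present in every kidney, as the label of kidney cortex requires. In TC-8 the liver gene Alb stood at 244 FPKM against 7.58 to 30.0 in the other kidneys, and the summed level of the urothelial genes described below was highest in TC-11 and TC-12. The sample titles name biological replicates, but nothing in the sources says that each kidney came from a separate mouse. The p-values therefore measure the spread between these kidneys. The authors' paper reports a larger number of WT kidneys than the 3 with values here.

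Against this background 8 of the 9 genes had higher values in every BPS-TA kidney than in any WT kidney, and Pigr had lower values in every one. Among all 17654 genes with a value above 0 in at least 1 kidney, the groups stood apart in this way for 30.9% upward and 6.45% downward, and among the genes of the fit described next for 35.0% and 8.87%. The fit across genes used those at 1 FPKM or more in 3 or more kidneys, 12036 in all, of which 28.5% were called higher and 6.56% lower (limma, Benjamini-Hochberg adjusted p under 0.05). Of the 9 genes 7 passed the filter, 6 called higher and 1 lower, but 5 of these passed through their BPS-TA kidneys alone, so their number carries no weight. With no filter limma called 8 of the 9, 7 of them higher, against 25.4% of all genes in either direction and 21.2% higher. The middle gene of those tested had a log2 fold change of 0.12, and centring each kidney on its median moved that value to -0.05.

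**Figure D1:**
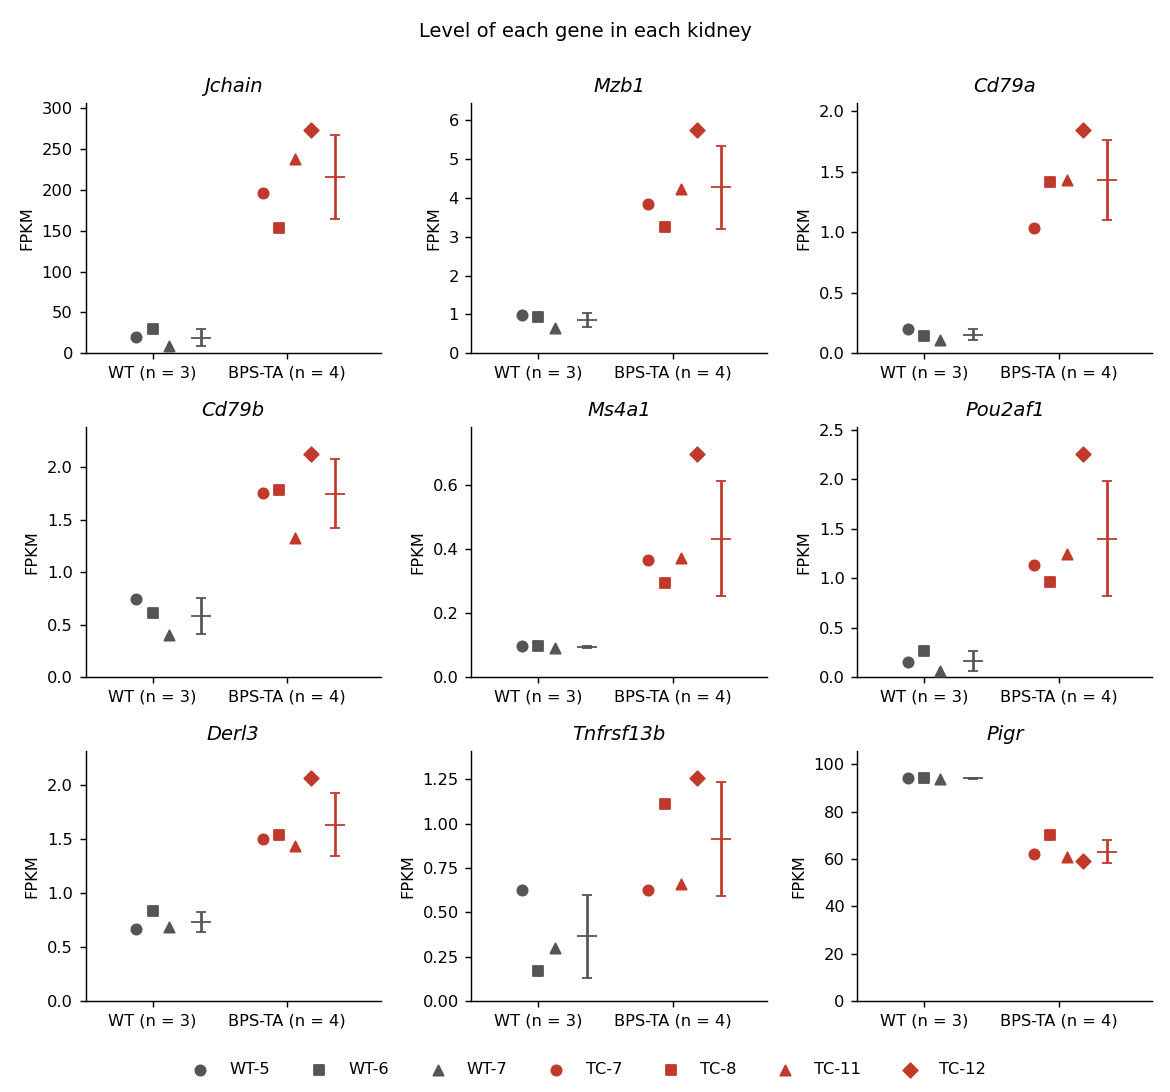
FPKM of each of the 9 genes in each kidney, with WT in grey (n = 3) and BPS-TA in red (n = 4); horizontal marks are group means and bars 1 SD, and every axis starts at 0. In 8 panels all BPS-TA kidneys lie above the WT kidneys, by only 0.00146 FPKM for Tnfrsf13b, and for Pigr the 4 BPS-TA kidneys lie between 59.2 and 70.0 FPKM, below the WT kidneys at 93.9 to 94.3.

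Jchain showed the widest change of the set. Its level was 20.1, 29.2 and 8.75 FPKM in WT-5, WT-6, WT-7 in turn and 197, 154, 238 and 274 FPKM in TC-7, TC-8, TC-11, TC-12 in turn. The WT kidneys differed among themselves by 3.33-fold from lowest to highest and the BPS-TA kidneys by 1.78-fold, and the groups were 125 FPKM apart. Means were 19.3 ± 10.2 (SD, n = 3) and 215.5 ± 51.7 FPKM (SD, n = 4), a ratio of 11.1. The log2 fold change was 3.53 with a standard error of 0.36 (limma, adjusted p = 0.000392), the 14th largest of all tested genes. It remained between 3.07 and 3.88 when each kidney was left out in turn.

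Mzb1 encodes a chaperone of the endoplasmic reticulum that helps to assemble and secrete antibody in marginal zone B cells and plasma cells. It stood at 0.992, 0.934 and 0.648 FPKM in the WT kidneys and at 3.84, 3.26, 4.23 and 5.75 FPKM in TC-7, TC-8, TC-11, TC-12 in turn. No WT kidney reached the level of 1 FPKM, and the lowest BPS-TA kidney was 2.27 FPKM above the highest WT kidney. The log2 fold change was 1.49 with a standard error of 0.16, and the means differed by 4.98-fold. Limma gave an adjusted p of 0.000433 with the filter and 0.00188 with no filter.

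Derl3 encodes a member of the derlin family, which moves misfolded proteins out of the endoplasmic reticulum for degradation, and it is abundant in secretory cells such as plasma cells. WT kidneys held 0.671, 0.836 and 0.684 FPKM, and BPS-TA kidneys 1.5, 1.54, 1.43 and 2.07 FPKM. Its log2 fold change of 0.60 with a standard error of 0.10 was the smallest of the genes called higher. Limma gave it an adjusted p of 0.00363 with the filter and 0.00573 with no filter. Under quantile normalization the change was 0.27 and the call was lost (limma, adjusted p = 0.0718). The other derlins were far more abundant per length of transcript. Derl1 stood at 36.7 to 37.9 FPKM in WT and 39.5 to 43.0 in BPS-TA kidneys (log2 fold change 0.14, limma, adjusted p = 0.0552), and Derl2 fell by 0.23 on the log2 scale (limma, adjusted p = 0.0143).

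Pou2af1, also called OBF-1, is a coactivator that works with octamer-binding factors in B cells and is needed for germinal centres. Its levels were 0.155, 0.265 and 0.0635 FPKM in WT and 1.14, 0.958, 1.25 and 2.26 FPKM in BPS-TA kidneys. TC-12 alone was well above the other 3, and WT-7 held the lowest value. The log2 fold change was 1.02 with a standard error of 0.17 (limma, adjusted p = 0.00351 with the filter and 0.00799 with no filter). As a count these levels are small, about 5.4 to 22.9 reads in a WT kidney and 81.1 to 203 in a BPS-TA kidney. With TC-7, TC-11 or TC-12 left out the gene no longer passed the filter, and with no filter its adjusted p in limma stayed at or below 0.0368 for each kidney left out.

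Cd79a and Cd79b encode the signalling chains of the B cell receptor. Cd79a was measured at 0.2, 0.146 and 0.112 FPKM in WT and at 1.04, 1.41, 1.43 and 1.85 FPKM in BPS-TA kidneys. This corresponds to about 5.4 to 10.3 reads against 50.5 to 95.1 reads per kidney. The means differed by 9.37-fold, and the log2 fold change was 1.07 with a standard error of 0.12. Its adjusted p in limma was 0.000562 with the filter and 0.0014 with no filter. Cd79b was at 0.741, 0.615 and 0.400 FPKM in WT and 1.75, 1.78, 1.325 and 2.13 FPKM in BPS-TA kidneys, a 2.98-fold difference of the means. Its log2 fold change was 0.79 with a standard error of 0.12 (limma, adjusted p = 0.00241 with the filter and 0.00511 with no filter). For this chain TC-11 was the lowest BPS-TA kidney, whereas for Cd79a it was TC-7.

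Ms4a1 encodes CD20, a surface protein of B cells that is lost when they become plasma cells. It did not reach 1 FPKM in any kidney. The 3 WT kidneys were close together at 0.0975, 0.0974 and 0.0923 FPKM, about 10 reads each, and the BPS-TA kidneys held 0.365, 0.296, 0.374 and 0.699 FPKM. The difference in mean log2(FPKM + 1) was 0.38 (exact two-sided permutation test over the 35 splits of the kidneys, p = 0.0286, the smallest p the design allows). Limma with no filter called it as well (adjusted p = 0.0235), but not with WT-5, WT-6 or WT-7 left out (adjusted p of 0.064, 0.072 and 0.0753).

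Tnfrsf13b encodes TACI, a receptor on B cells and plasma cells for the survival cytokines BAFF and APRIL. It was measured at 0.625, 0.169 and 0.300 FPKM in WT and at 0.626, 1.11, 0.658 and 1.26 FPKM in BPS-TA kidneys. WT-5 and TC-7 were 0.00146 FPKM apart, so the groups barely separated. The difference in mean log2(FPKM + 1) was 0.49 and did not pass the exact two-sided permutation test (p = 0.0571), nor limma with no filter (adjusted p = 0.0668). With a pseudocount of 0.1 the difference was 1.19 and the same exact test gave p = 0.0286.

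Pigr moved the other way, and its WT levels were the most even of the set. It stood at 94.2, 94.3 and 93.9 FPKM in the WT kidneys and at 62.3, 70.0, 60.7 and 59.2 FPKM in TC-7, TC-8, TC-11, TC-12 in turn. The means were 94.1 ± 0.217 (SD, n = 3) and 63.0 ± 4.81 FPKM (SD, n = 4), so the BPS-TA kidneys held 66.9% of the WT mean. The log2 fold change was -0.57 with a standard error of 0.06 (limma, adjusted p = 0.000531), the 183rd lowest of all tested genes. Over all alternatives it lay between -0.75 and -0.51, and its highest adjusted p in limma was 0.0134.

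**Figure D2:**
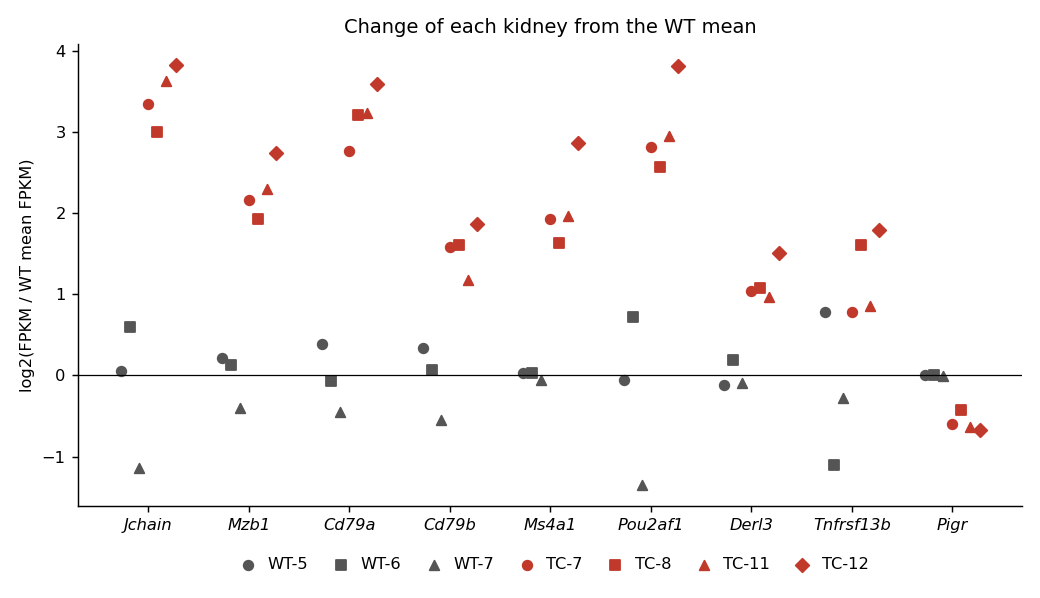
Log2 ratio of the FPKM of each kidney to the mean FPKM of the WT kidneys, with no pseudocount, for each of the 9 genes; grey points are WT and red points BPS-TA kidneys. TC-12 is the highest point for 8 of the 9 genes and the lowest for Pigr.

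A single kidney stood at the end of the range for every gene, while the others changed places. TC-12 was the highest kidney for all 8 of the genes other than Pigr and the lowest for Pigr. In TC-12 the level over the WT mean was 14.2-fold for Jchain, 14.0-fold for Pou2af1 and 12.1-fold for Cd79a, against 2.83-fold for Derl3. TC-8 was the lowest BPS-TA kidney for 4 of the 8 but was next below TC-12 for Cd79b, Derl3 and Tnfrsf13b, and WT-7 was the lowest WT kidney for 6 of the 8. These genes were read from the same libraries, so the common place of TC-12 is a description and not independent support. With TC-11 and TC-12 both left out, and with no filter, limma still called 8 of the 9 genes (highest adjusted p = 0.0227), all but Tnfrsf13b.

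Ratios between the genes within a kidney separated the groups for some pairs and not for others. Jchain over Cd79a, as a ratio of FPKM, was 78.2 to 199 in WT and 109 to 189 in BPS-TA kidneys, which overlapped. Jchain over Mzb1 was 13.5 to 31.2 in WT and 47.2 to 56.2 in BPS-TA kidneys, with no overlap. Mzb1 over Cd79a was 4.95 to 6.38 in WT and 2.31 to 3.70 in BPS-TA kidneys, again with no overlap and in the opposite sense. In the WT kidneys Cd79a had only about 5.4 to 10.3 reads and Mzb1 about 19.5 to 31.6, so ratios with these genes are imprecise. The share of all gene pairs whose ratios separate the groups was not computed. Pigr exceeded Jchain 3.23-fold to 10.7-fold in the WT kidneys, and in the BPS-TA kidneys it was 0.216 to 0.455 of Jchain. The order of the transport receptor and its ligand chain was thus reversed in all 4 BPS-TA kidneys, on a scale per length of transcript. In bulk tissue more cells of a type and more RNA per cell cannot be told apart.

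Other genes of the B cell receptor and of B cell identity were counted from a list of 24. Of these, 9 passed the filter, and 6 rose and 0 fell (median log2 fold change 0.69), and 3 rose without TC-11 and TC-12. Counts for this and the following lists stand beside 28.5% of all tested genes called higher and 6.56% called lower, and genes low in WT pass the filter only where BPS-TA kidneys are high. Over all lists 52 genes were called, of which 22 lost the call under quantile normalization and 16 under median centring, and 0 changed sign. Of the called genes the largest changes were those of Cd72, a coreceptor that restrains B cell signalling (1.05, limma, adjusted p = 0.00146), Ebf1, an early B lineage factor that stromal cells also express (0.76, adjusted p = 0.0174), and Ly86, the partner of the Cd180 receptor (0.73, adjusted p = 0.000704). Blnk, the adaptor below the B cell receptor, rose by 0.69 and Cd38, an ectoenzyme, by 0.55. Cd37, a tetraspanin of B cells and other leukocytes, had a log2 fold change of 0.81 and was not called (limma, adjusted p = 0.0633). Macrophages also express several of these genes. Genes closer to the B cell lineage were near the limit of detection. Pax5, the factor that keeps B cell identity, was at 0.0292 to 0.44 FPKM in WT and 0.127 to 0.483 in BPS-TA kidneys (exact two-sided permutation test, p = 0.514), and Cd22, an inhibitory coreceptor, overlapped between the groups as well (p = 0.486, exact test). Other genes under the filter stood apart. Of all 24 listed genes 16 were higher in every BPS-TA kidney than in any WT kidney, against 30.9% of the 17654 genes with a value above 0. Bank1, an adaptor of B cell signalling, was at 0.0109 to 0.0483 FPKM in WT and 0.131 to 0.31 in BPS-TA kidneys (limma with no filter, adjusted p = 0.0201; exact test, p = 0.0571), and the B lineage factor Spib at 0.0668 to 0.137 and 0.217 to 0.481 FPKM (limma with no filter, adjusted p = 0.0399). Fcrla and Fcer2a, which encodes CD23, did not overlap either, with means 4.64-fold and 5.98-fold those of WT, and were not called by limma with no filter (adjusted p = 0.0703 and 0.067). With no filter limma called 11 genes of the list higher, against 21.2% of all genes.

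Genes of plasma cell differentiation gave no single direction. Of 12 listed genes 8 were tested, 2 rose and 3 fell, with a median of 0.07. Sdc1, which encodes the plasma cell surface protein CD138 and is also made by epithelium, rose from 4.31 to 4.51 FPKM in WT to 6.02 to 8.39 FPKM in BPS-TA kidneys (log2 fold change 0.59, limma, adjusted p = 0.00327), and Fam46c rose by 0.46. Xbp1, the factor that drives the secretory program of plasma cells and acts in many other cells, fell by 0.27 on the log2 scale from 80.2 to 84.7 FPKM in WT (limma, adjusted p = 0.00654). Ell2, an elongation factor that favours the secreted form of antibody mRNA, fell by 0.38, and Eaf2 fell by 0.16. The plasma cell regulators Irf4 and Prdm1 were under the filter. Irf4 was at 0.0751 to 0.125 FPKM in WT and 0.355 to 1.06 in BPS-TA kidneys, without overlap (exact two-sided permutation test, p = 0.0571; limma with no filter, adjusted p = 0.021), and Prdm1 at 0.542 to 0.639 and 0.707 to 1.11 FPKM (p = 0.0857, exact test; limma with no filter, adjusted p = 0.0872).

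The general machinery of antibody folding and secretion, which every secreting cell uses, had more falls than rises. All 25 listed genes were tested, and 1 rose and 10 fell (median -0.11), with 2 rising when TC-7 was left out. Hspa5, the main chaperone of the endoplasmic reticulum, fell from 329 to 372 FPKM in WT to 222 to 237 FPKM in BPS-TA kidneys (log2 fold change -0.62, limma, adjusted p = 0.000198). Its cofactor Sdf2l1 fell by 1.0, and the stress-induced proteins Creld2, Manf and Herpud1 fell by 0.91, 0.72 and 0.58 on the log2 scale. Txndc5, a disulfide isomerase, was the gene that rose (0.34, limma, adjusted p = 0.00175). These genes are expressed throughout the tubule, and the share of their RNA that comes from plasma cells was not tested.

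**Figure D3:**
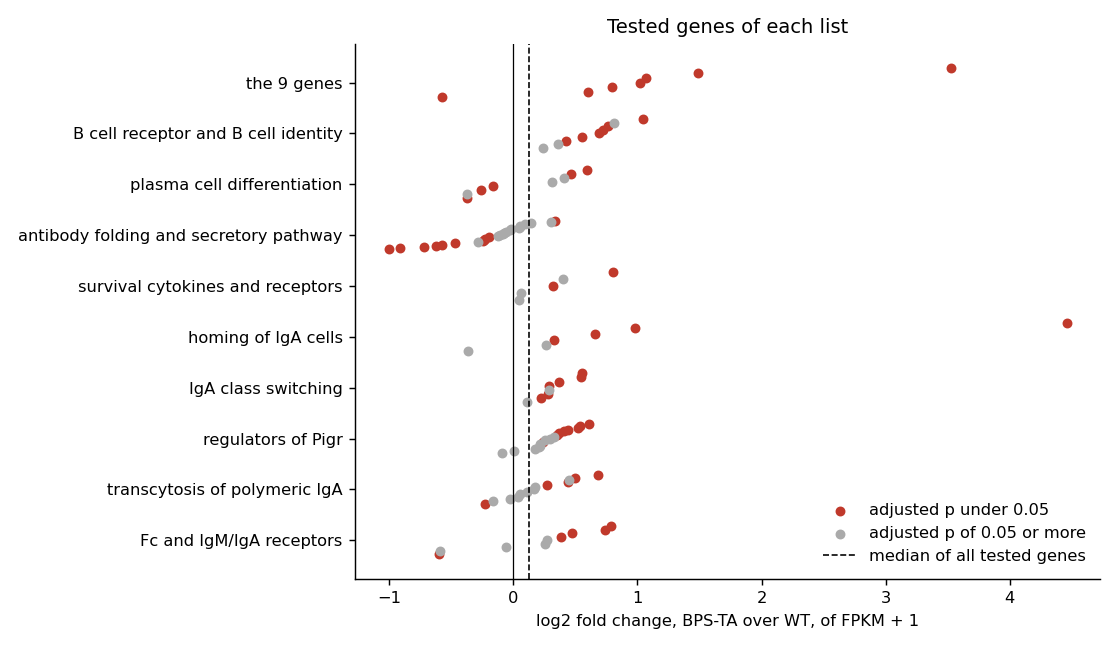
Log2 fold change of BPS-TA over WT on log2(FPKM + 1) for the tested genes of each list, 1 point per gene, red where the limma adjusted p is under 0.05 and grey otherwise; the dashed line is the median of all tested genes, 0.12. Ccl28 in the homing list lies at 4.46 and Jchain at 3.53, whereas 10 red points of the secretory list lie below 0.

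Of the receptors and cytokines of plasma cell survival, 5 of 11 listed genes were tested, and 2 rose and 0 fell (median 0.32); only 1 rose without WT-6, WT-7, TC-7, TC-11 or TC-12. Cxcl12, a chemokine that retains plasma cells in their niche, rose from 48.0 to 56.1 FPKM to 73.1 to 116 FPKM (log2 fold change 0.80, limma, adjusted p = 0.0054), and Il6ra rose by 0.32. The APRIL gene Tnfsf13 overlapped between the groups (0.06, limma, adjusted p = 0.652). The BAFF gene Tnfsf13b, under the filter, was at 0.557 to 0.852 FPKM in WT and 0.943 to 1.53 in BPS-TA kidneys (exact two-sided permutation test, p = 0.0286). Tnfrsf17, which encodes the plasma cell receptor BCMA, was at 0, 0.126 and 0.0451 FPKM in WT and 0.389, 0.547, 0.295 and 0.437 FPKM in BPS-TA kidneys (exact two-sided permutation test, p = 0.0286). Tnfrsf13c, the BAFF receptor of B cells, overlapped (p = 0.171, exact test).

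Among 14 genes for the homing of IgA cells, 6 were tested, and 4 rose and 0 fell (median 0.49), with 1 falling when TC-8 was left out. Ccl28, an epithelial chemokine that attracts IgA plasma cells, was 4.87, 5.92 and 6.43 FPKM in the WT kidneys and 133, 125, 170 and 163 FPKM in TC-7, TC-8, TC-11, TC-12 in turn. Its log2 fold change of 4.46 with a standard error of 0.13 (limma, adjusted p = 3.45e-07) was the 9th largest of all tested genes, above that of Jchain. Its receptor Ccr10 was at 0.182 to 0.297 FPKM in WT and 0.366 to 0.533 in BPS-TA kidneys (exact two-sided permutation test, p = 0.0286). Ccl25, the other epithelial chemokine for IgA cells in the list, was at 6.12 to 7.74 FPKM in WT and 4.31 to 6.54 in BPS-TA kidneys and was not called (log2 fold change -0.37, limma, adjusted p = 0.0565), but it was called lower under quantile normalization (-0.59, adjusted p = 0.0168) and under median centring (-0.54, adjusted p = 0.014). The adhesion genes Vcam1, Itgb7 and Itgb1 rose by 0.98, 0.65 and 0.33 on the log2 scale.

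Genes of IgA class switching, the change of the antibody constant region under TGF-β and CD40 signals, rose in 6 and fell in 0 of 8 tested, with 12 listed (median 0.29); 3 rose without WT-5, without WT-7 and without TC-11. Cd40 rose by 0.56, Traf2 by 0.55, Tgfb1 by 0.36, Traf3 by 0.29 and Tgfbr2 by 0.28. Of these genes only Traf2 kept the call under quantile normalization (limma, adjusted p = 0.00413). Under median centring Cd40 kept it (limma, adjusted p = 0.0474), whereas Tgfb1, Traf3 and Tgfbr2 did not (adjusted p = 0.192, 0.235 and 0.35). The immunoglobulin constant and variable genes were not analysed here. These values therefore do not show whether antibody, or which class of it, went with the level of Jchain.

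Known regulators of Pigr expression were tested beside it. Of 17 tested genes for cytokine receptors and transcription factors that act on Pigr, 8 rose and 0 fell (median 0.30), among them Tnfrsf1a (0.61, limma, adjusted p = 0.00128), Relb (0.54), Il1r1 (0.52), Nfkb1 (0.44) and Nfkb2 (0.41). Irf1, an interferon-induced activator of the receptor gene, rose by 0.35 (limma, adjusted p = 0.00634). Irf1, Il1r1 and Nfkb2 lost the call under quantile normalization (limma, adjusted p = 0.115, 0.147 and 0.147). They lost it under median centring too (adjusted p = 0.0809, 0.0543 and 0.0514). Relb lost it under quantile normalization only (adjusted p = 0.0518), and Tnfrsf1a and Nfkb1 kept it under both. The E-box factors Usf1 and Usf2 were at 0.17 and -0.09 (limma, adjusted p = 0.173 and 0.354), and Usf2 was called lower under median centring (-0.27, limma, adjusted p = 0.0272). Of 13 tested genes for the transcytosis of the receptor, 4 rose and 1 fell (median 0.17): Ap1m2, of the epithelial sorting adaptor, rose by 0.68, the small GTPases Rab25 and Rab3d by 0.50 and 0.44, and Myo5b by 0.27, whereas Egfr fell by 0.23. Without WT-5, WT-7 or TC-12 the number that rose was 2, and without WT-6, WT-7, TC-7, TC-11 or TC-12 the number that fell was 0.

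Of 9 other receptors for antibody, all tested, 4 rose and 1 fell (median 0.27), with 2 falling when TC-7 or TC-8 was left out. The Fc receptor genes Fcer1g, Fcgr1 and Fcgr3 rose by 0.78, 0.74 and 0.47, and Trim21, the cytosolic antibody receptor, rose by 0.39. Fcamr, a receptor for IgA and IgM that precedes Pigr in the order of genes on chromosome 1, was the one that fell, from 12.7, 15.5 and 20.8 FPKM in WT to 9.17, 10.2, 10.9 and 10.7 FPKM in BPS-TA kidneys (log2 fold change -0.60, limma, adjusted p = 0.0144). Fcmr, the IgM receptor gene on the other side of Pigr, was at 0.203 to 1.06 FPKM in WT and 0.54 to 0.654 in BPS-TA kidneys and was under the filter.

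Markers of other cells moved with these genes in part. Of 10 macrophage markers 9 were tested and all 9 rose, and their summed level was 54.9 to 59.9 FPKM in WT and 101 to 160 FPKM in BPS-TA kidneys, highest in TC-12, and the part of these cells in the levels of the B cell list was not tested. The 3 tested dendritic cell markers of 8 rose, with sums of 3.54 to 4.54 and 7.23 to 9.12 FPKM. Of the 8 markers 7 were higher in every BPS-TA kidney than in any WT kidney, against 30.9% of all genes with a value above 0. Limma with no filter also called Flt3, Ccr7, Xcr1 and Clec10a (adjusted p = 0.00296, 0.0173, 0.0323 and 0.0471) but no longer Zbtb46 (0.0642). The T cell sum over 10 genes was 2.59 to 5.32 FPKM in WT and 4.6 to 8.4 FPKM in BPS-TA kidneys, and 0 of 1 tested was called (Lck, 0.21, limma, adjusted p = 0.467). Under the filter, Cd2, Cd3d and Cd28 were higher in every BPS-TA kidney than in any WT kidney. These were 3 of the 10, against 30.9% of all genes with a value above 0. Limma with no filter called Cd2 and Cd3d (adjusted p = 0.0387 and 0.0455) but not Cd28 (0.0523). For neutrophils 0 of 3 tested of 8 listed genes was called, with sums of 6.84 to 11.6 and 4.34 to 7.60 FPKM. Retnlg, S100a8 and Cxcr2, 3 of the 8, were lower in every BPS-TA kidney than in any WT kidney. Among all genes with a value above 0 this share was 6.45%. Limma with no filter called Retnlg (adjusted p = 0.00708) but not S100a8 or Cxcr2 (0.12 and 0.104). NK cell sums over 6 genes were 2.24 to 2.94 and 2.48 to 4.82 FPKM with 0 of 1 called. Only Ncr1 among the 6 was higher in every BPS-TA kidney than in any WT kidney (limma with no filter, adjusted p = 0.0292). Of 6 mast cell genes only Kit, which tubules also express, was tested and rose, while Fcer1a, Mcpt4 and Tpsb2 were at 0 or at most 0.0487 FPKM in every kidney.

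Tissue next to the cortex was checked in the same way. The urothelial sum over 6 genes was 1.67 to 2.92 FPKM in WT, and in TC-7, TC-8, TC-11, TC-12 in turn it ranged from 2.73 to 28.7 FPKM, with TC-12 highest, and 0 of 3 tested genes was called. The kidney with most urothelial RNA was thus also the one with the highest levels of all 8 plasma cell and B cell genes, and the part of this in their levels was not tested beyond the fits without TC-11 and TC-12. Markers of perirenal fat summed to at most 0.531 FPKM and those of lymph node stroma, 3 genes with values, to at most 1.51 FPKM in any kidney, the latter mostly Cxcl13 in TC-12. Of 8 proximal tubule genes, 1 rose and 4 fell, with sums of 4393 to 4499 FPKM in WT and 3253 to 4028 in BPS-TA kidneys. Pigr and these sums were both lower in every BPS-TA kidney, and their relation was not tested. Of 6 genes of the thick ascending limb and distal tubule 4 rose and 0 fell, and of 7 collecting duct genes 4 rose and 0 fell.

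**Figure D4:**
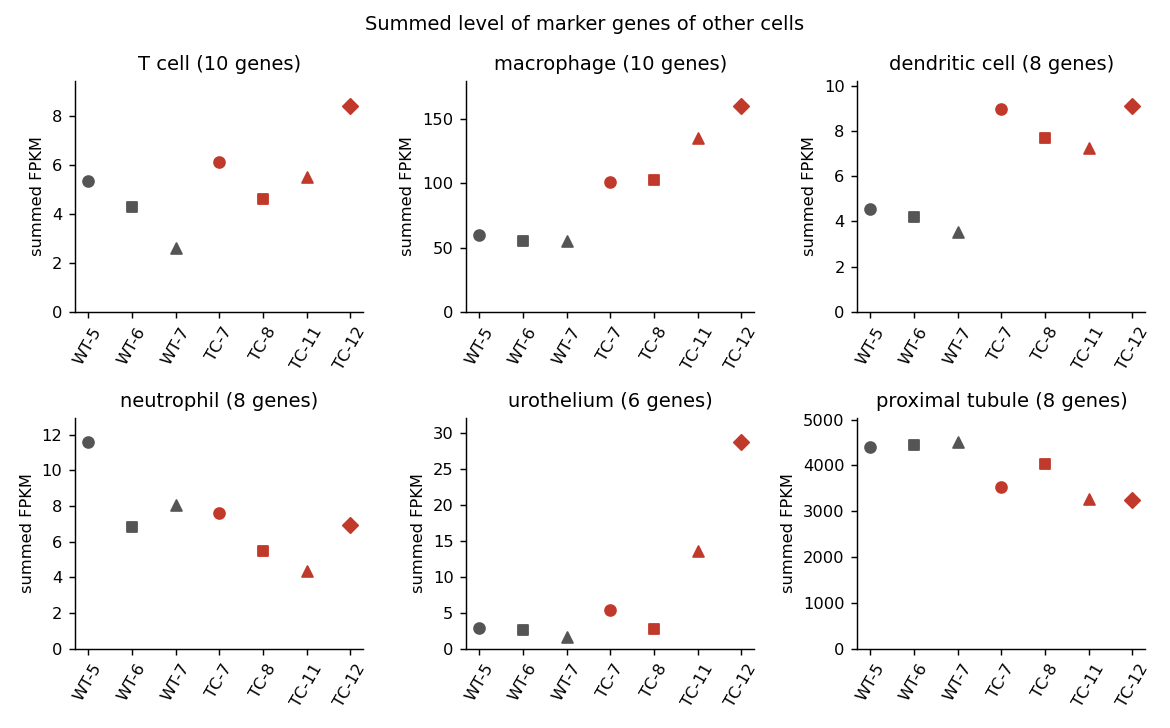
Summed FPKM of marker genes of 6 other cell types in each kidney, grey for WT and red for BPS-TA; each axis starts at 0. The macrophage sums are 54.9 to 59.9 in WT and 101 to 160 in BPS-TA kidneys, and the urothelial sum reaches 28.7 in TC-12.

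Genes with the pattern most like a member over the 7 kidneys were found by the root mean square difference of log2(FPKM + 1), each gene centred on its mean. Nearest to Jchain were Akr1c18 (0.445), Slpi (0.491) and Egln3 (0.508). Nearest to Cd79a were Cd68 (0.0813), a macrophage lysosomal protein, Plxdc1 (0.0848) and Selplg (0.0855), the leukocyte ligand of selectins. Nearest to Pigr were Slc22a18 (0.0352), Gpx1 (0.0405) and Mettl7b (0.0407). Slc22a18 stood at 411 to 432 FPKM in WT and 271 to 306 FPKM in BPS-TA kidneys, the same step down as that of Pigr with TC-8 again the highest BPS-TA kidney.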

How the data were processed

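RNA from kidney cortex was sequenced by the authors as single reads of 51 bases on a HiSeq2000. The submitters' processing notes name mm9 and DESeq 1.32; for the aligner, the counter and the annotation nothing was given in the sources read. The authors deposited a table of values by kidney for protein-coding genes that does not name its unit, and FPKM was inferred from the values. Their other table holds the authors' own comparison (fold changes and p-values) and was not used.

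The 7 columns of values, all of which were used, were assigned to WT or BPS-TA by name. After 83 rows of 37 repeated identifiers were left out, limma 3.58.1 (R 4.3.3, with a mean-variance trend) was run on log2(FPKM + 1) of the 12036 genes at 1 FPKM or more in 3 or more kidneys, with Benjamini-Hochberg adjustment and a threshold of 0.05. Members under the filter, and listed genes under it where an exact p is given, were tested by an exact permutation test. The fit was tested on simulated data. Depth is not stated in the files; the read numbers given are approximate and use the longest transcript.

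The 9 genes and all gene lists were chosen with earlier results of these data known. The text names the 9 genes, up to 5 called genes per list with the largest absolute log2 fold change, fixed defining genes, and the 3 genes nearest to Jchain, Cd79a and Pigr. Txndc5, Cd37, Bank1, Spib, Fcrla, Fcer2a, Ccl25, Usf1, Usf2, Fcmr, Cxcl13, Alb, Lck, Kit and the mast cell genes were named after their values were seen. So were Cd2, Cd3d, Cd28, Ncr1, Flt3, Ccr7, Xcr1, Clec10a, Zbtb46, Retnlg, S100a8 and Cxcr2. Alternatives were another filter or none, a pseudocount of 0.1, quantile normalization, median centring, no trend, other thresholds and each kidney left out. Sequences are from RefSeq. Python 3.11.15 and scipy 1.17.1 were used. A few listed genes are not reported here.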

Additional observations from a re-analysis of the deposited data

Results flagged for a closer look

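Among 109 listed genes that were tested, or that are among the 9, the 4 BPS-TA kidneys were searched for a kidney far from the other 3 (gap to the nearest over the whole range above 0.829). Chance gives about 1 in 20, and 5 such values were found. Derl3 was 2.07 FPKM in TC-12, with a gap of 0.834 of the range, and the B cell tetraspanin Cd37 was 4.84 FPKM in the same kidney. In TC-8 the disulfide isomerase Pdia6 was 76.0 FPKM and the stress-induced protein Creld2 was 16.2 FPKM, both above the other BPS-TA kidneys, and the receptor Tgfbr1 was 16.7 FPKM, below them.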

How the results depend on the processing

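No paired analysis was possible because the numbers in the columns match no replicate number in the labels. The direction of each of the 9 genes held under every alternative run. Jchain, Mzb1, Cd79a, Cd79b, Pou2af1 and Pigr kept an adjusted p under 0.05 wherever they were tested, but Cd79b and Pigr, like Derl3, were below a log2 change of 1 in size, a threshold that left 4 genes called higher. Derl3 lost its call under quantile normalization (0.27, limma, adjusted p = 0.0718). Tnfrsf13b passed its test with a pseudocount of 0.1 (1.19), and limma without a filter called it without WT-5 (adjusted p = 0.0466) and reached 0.194 without WT-6. The number of the 9 genes called higher was 1, against 6, both with an FPKM of at least 1 required in every kidney and without TC-11 and TC-12, an alternative chosen after the data were seen, since both leave fewer of the genes past the filter; it was 5 to 6 over the fits with 1 kidney left out. The number called lower was 0, against 1, where a log2 change of 1 or more in size was required.

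Over the pathway lists 15 genes were called higher under quantile normalization, 21 under median centring, 23 without TC-11 and TC-12, 24 at an adjusted p under 0.01 and 2 at a log2 change of 1 or more in size. Called lower were 29 under median centring, 9 at an adjusted p under 0.01 and 1 at such a change. With 1 kidney left out the numbers were 29 to 39 higher and 10 to 16 lower. Of all called genes 81.3% were higher as deposited, 45.1% under quantile normalization and 37.9% under median centring, and the middle log2 fold change of the tested genes moved from 0.12 to -0.04 and -0.05. The B cell list had 3 genes called higher under quantile normalization and 11 with no filter, against 6. Of all genes 21.2% were called higher with no filter. With no filter the plasma cell differentiation list had 4, against 2, the homing list 7, against 4, the secretory list 2, against 1, and the transcytosis list 2, against 4. The class switching list had 1 and 2 under quantile normalization and median centring, against 6. The list of Pigr regulators had 2 and 3, against 8. The secretory list had 18 genes called lower under median centring, against 10. Depth limits Ms4a1, Cd79a and Pou2af1 most, at about 5.4 to 22.9 reads in a WT kidney.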
